A study of Mus musculus with 3 samples.

Results

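The 8 genes that mark capillary endothelium of the heart, Rgcc, Car4, Aqp1, Aqp7, Btnl9, Cd300lg, Timp4 and Sparcl1, were measured in RNA bound to tagged endothelial ribosomes in 3 mouse hearts. They were taken by their symbols, and all 8 were among the 17583 genes of the deposited table. The mice were of the genotype Cdh5-CreERT2;Rpl22tm1.1Psam (EC-RiboTag) and had received tamoxifen, after which Cre switches the ribosomal protein gene Rpl22 to a version with a hemagglutinin tag in cells that use the Cdh5 promoter. Per the labels, a coronary artery had been ligated and hearts were taken on day 7, although the methods for these mice mention no infarction, and the labels state neither age nor sex. The letters Rz of the sample titles are not explained there. The study uses RZ for the remote zone of infarcted hearts and describes RNA of EC-RiboTag mice from that and other zones for a PCR measurement. Its sequencing of EC-RiboTag RNA (n = 3) is described for cardiac endothelial cells, with neither a zone nor an infarction named. No source used here says whether these libraries came from the remote zone or from whole hearts. The 3 libraries summed to between 7149102 and 7268785 normalized counts, and mouse 1 stood apart in sex-linked genes. All 12 genes of a general endothelium list averaged 200 or more, as did 9358 of the 17583 genes and all 10 genes of a cardiomyocyte list. All 3 libraries belong to 1 condition, and no input or control library was analysed here, so levels were described and no difference between conditions could be tested. Because Cdh5 is active in capillary, arterial, venous, lymphatic and endocardial endothelium alike, each library mixes these cells, and fewer cells of a type and less RNA per cell cannot be told apart.

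Capillaries are the vessels in which blood and heart muscle exchange water, gases and nutrients, and their endothelium carries proteins for this traffic on its surface. Aqp1 forms a water channel and Aqp7 a channel for water and glycerol. Car4 is a membrane-anchored carbonic anhydrase that interconverts carbon dioxide and bicarbonate at the cell surface. Cd300lg and Btnl9 encode membrane proteins of the immunoglobulin superfamily, Rgcc a regulator of the cell cycle that responds to complement, Timp4 a secreted inhibitor of matrix metalloproteinases, and Sparcl1 a secreted matrix protein related to SPARC.

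Among the membrane proteins of the set, the water channel Aqp1 (ENSMUSG00000004655, GRCm39 chr6:55313417-55325540, plus strand) reached 2301, 2212 and 2183 normalized counts in mice 1, 2 and 3, with a mean of 2232 ± 61.5 (SD, n = 3). A normalized count is the number of reads on a gene divided by a size factor of its library, rounded to a whole number. Cd300lg (ENSMUSG00000017309, chr11:101932335-101946446, plus strand) had 2121, 2038 and 1914, with a mean of 2024 ± 104 (SD, n = 3). Btnl9 (ENSMUSG00000040283, chr11:49056412-49077986, minus strand) had 2637, 2314 and 1960, with a mean of 2304 ± 339 (SD, n = 3). The values of Aqp1 lay close together, whereas those of Btnl9 stretched from the high mouse 1 to the low mouse 3. Aqp7 (ENSMUSG00000028427, chr4:41033074-41048139, minus strand) had normalized counts of 1427, 1162 and 1152, with a mean of 1247 ± 156 (SD, n = 3). Car4 (ENSMUSG00000000805, chr11:84848612-84856870, plus strand) had 883, 747 and 672, with a mean of 767.3 ± 107 (SD, n = 3). Both genes were highest in mouse 1, and for Aqp7 the other mice were nearly equal.

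Of the secreted proteins, Timp4 (ENSMUSG00000030317, chr6:115218853-115229166, minus strand) reached 2682, 2094 and 2379 normalized counts in mice 1, 2 and 3, with a mean of 2385 ± 294 (SD, n = 3). Sparcl1 (ENSMUSG00000029309, chr5:104226977-104261599, minus strand) had 2314, 2353 and 2271, with a mean of 2313 ± 41.0 (SD, n = 3). Timp4 was lowest in mouse 2, and Sparcl1 showed hardly any spread. The intracellular regulator Rgcc (ENSMUSG00000022018, chr14:79526196-79539085, minus strand) had 753, 723 and 648, with a mean of 708.0 ± 54.1 (SD, n = 3), again highest in mouse 1 and lowest in mouse 3. The canonical transcript of Rgcc, with 5 exons and 929 bases, is the shortest of the 8, and that of Timp4, with 5 exons and 5597 bases, is the longest. For Aqp7, 43 of 2478 windows of read length in the canonical transcript (1.74%) had an exact copy elsewhere in the genome, and for each of the other 7 genes none had. Exons of a gene on the opposite strand cover 29.7% of the canonical Rgcc transcript, 20.4% of that of Timp4 (by Syn2) and 12.2% of that of Sparcl1, and the authors counted reads by strand.

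**Figure D1:**
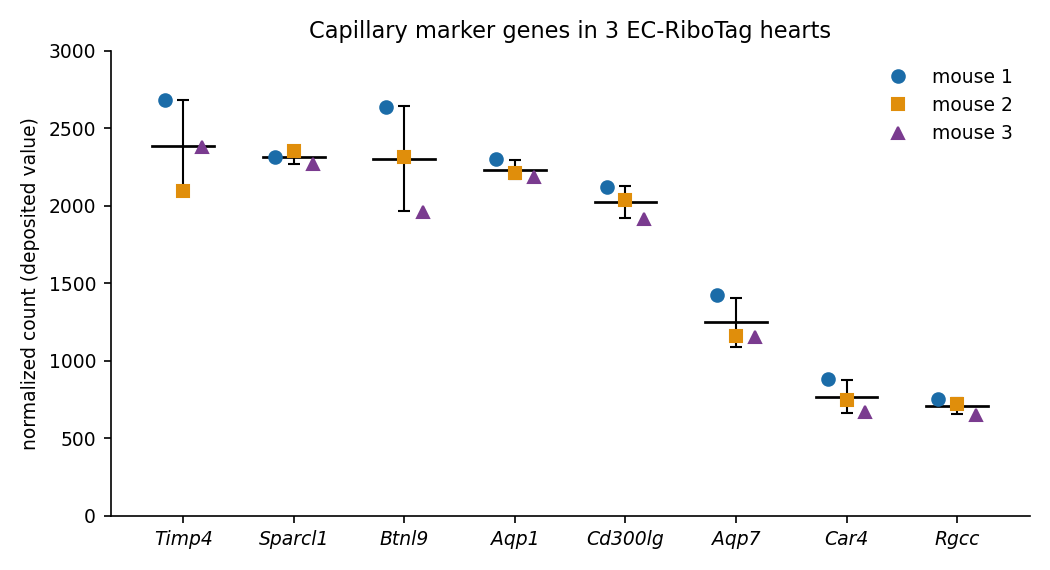
Normalized counts (y axis) of the 8 capillary marker genes (x axis) in mice 1, 2 and 3 (points), with the mean (line) and SD (bar) over 3 mice. Timp4, Sparcl1, Btnl9, Aqp1 and Cd300lg have means from 2024 to 2385, Aqp7 lies at 1247, and Car4 and Rgcc lie at 767.3 and 708.0.

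None of the 8 genes varied between mice by more than the threshold of a coefficient of variation of 20%, against 8.00% of the 9358 genes averaging 200 or more (no test). The coefficient was 14.7% for Btnl9, 13.9% for Car4, 12.5% for Aqp7, 12.3% for Timp4 and 7.64% for Rgcc, 5 genes above the median of 7.37% over these 9358 genes. It was 5.15% for Cd300lg, 2.76% for Aqp1 and 1.77% for Sparcl1. Low genes of the table show that 1 read is worth 0.977, 1.06 and 0.961 normalized counts in mice 1, 2 and 3, which gives about 7321000, 6753000 and 7564000 reads and a counting error of each gene that takes reads as independent. The SD of Btnl9 was 7.06 times its counting error, that of Timp4 6.03 times, that of Aqp7 4.42 times and that of Car4 3.86 times. It was 0.853 times the counting error for Sparcl1, but duplicate reads had been removed, which can lower the spread of genes with many reads per base, and its part in this value was not tested. Without mouse 2, 1 gene of the set passed the threshold, which was Btnl9. Among all genes averaging 200 or more, 921 passed it without mouse 2, against 749 with all 3 mice. A single gene of 8 thus does not set the markers apart from other genes (no test).

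In 6 of the 8 genes, Rgcc, Car4, Aqp1, Aqp7, Btnl9 and Cd300lg, mouse 1 was highest and mouse 3 lowest, a pattern counted after the values had been seen. The same held for 22.7% of the 9358 genes averaging 200 or more. All 8 genes were higher in mouse 1 than in mouse 3, as were 53.8% of those genes. The log2 ratio of mouse 3 to mouse 1 was -0.43 for Btnl9, -0.39 for Car4, -0.31 for Aqp7 and -0.22 for Rgcc. It was -0.17 for Timp4, -0.15 for Cd300lg, -0.08 for Aqp1 and -0.03 for Sparcl1. The difference between mice 1 and 3 was 10.1 times its counting error for Btnl9 and 5.43 times for Car4, but only 1.79 times for Aqp1 and 0.645 times for Sparcl1. The sex-linked genes in which mouse 1 stood apart had 4, 618 and 869 normalized counts (Xist) and 1080, 3 and 1 (Ddx3y, on chromosome Y) in mice 1, 2 and 3. By these values mouse 1 appears male and mice 2 and 3 female, which the labels do not state. The part of sex in the result was not tested. With mouse 1 alone in this pattern, sex cannot be told apart from other differences between single mice.

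The 250 bases before the RefSeq transcription starts of Btnl9, Car4, Aqp7 and Aqp1 are printed, for Aqp7 those before 1 of its 2 starts. The part of these bases in the differences between mice was not tested. They are shown for the 3 genes with the largest difference between mice 1 and 3 and for Aqp1, which had the smallest among the 6. ETS family transcription factors are known for their role in endothelial gene expression and bind DNA around the letters GGAA. Capitals mark each match to GGAA or to its reverse complement TTCC. The sequences come from RefSeq (GRCm38.p6), read 5′ to 3′ on the strand of the gene, and each had a single exact match in GRCm39, where the positions are given. The RefSeq starts lie up to 133 bases from the gene starts of the deposited table, and the Btnl9 window reaches 70 bases into the gene as deposited. In GENCODE the genes begin further upstream, Car4 at 84848020, Aqp1 at 55313068, Btnl9 at 49078022 and Aqp7 at 41048211. The Car4 window, most of the Aqp1 window and parts of the Btnl9 and Aqp7 windows thus lie inside the annotated gene.
Btnl9, chr11:49077917-49078166, minus strand: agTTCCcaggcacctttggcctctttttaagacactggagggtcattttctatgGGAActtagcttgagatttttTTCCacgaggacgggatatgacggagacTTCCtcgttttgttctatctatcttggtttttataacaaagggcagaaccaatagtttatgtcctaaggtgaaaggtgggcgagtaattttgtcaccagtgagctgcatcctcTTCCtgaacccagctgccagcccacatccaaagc
Car4, chr11:84848330-84848579, plus strand: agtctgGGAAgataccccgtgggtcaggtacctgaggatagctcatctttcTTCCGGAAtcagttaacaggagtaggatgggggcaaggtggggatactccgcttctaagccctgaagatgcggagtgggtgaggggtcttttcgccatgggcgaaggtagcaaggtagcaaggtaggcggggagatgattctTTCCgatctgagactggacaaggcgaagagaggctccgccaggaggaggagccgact
Aqp7, chr4:41048137-41048386, minus strand: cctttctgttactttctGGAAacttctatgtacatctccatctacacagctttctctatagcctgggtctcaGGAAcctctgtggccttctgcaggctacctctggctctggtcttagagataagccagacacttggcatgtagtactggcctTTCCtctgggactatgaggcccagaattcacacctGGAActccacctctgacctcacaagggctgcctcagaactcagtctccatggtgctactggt
Aqp1, chr6:55313034-55313283, plus strand: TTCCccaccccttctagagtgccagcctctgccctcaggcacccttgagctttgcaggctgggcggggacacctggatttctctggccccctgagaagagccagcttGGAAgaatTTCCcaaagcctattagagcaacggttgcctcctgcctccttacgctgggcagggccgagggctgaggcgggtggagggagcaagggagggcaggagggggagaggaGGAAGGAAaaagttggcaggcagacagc
Btnl9 and Aqp1 held 5 matches each and Car4 and Aqp7 held 4 each. Of the 8 genes, 6 had an entry, with 3 matches before Timp4 and 1 before Rgcc. At least 1 match was present in 93.4% of all 32851 windows of this length, with a median of 3. The longer form GGAAGT, which includes GGAA, or its reverse complement ACTTCC, was found before Rgcc, Btnl9 and Timp4, 3 of 6 genes, and in 19.7% of all windows. CCACCC, a core bound by Krüppel-like factors, or GGGTGG was found before Rgcc, Aqp1 and Timp4, and in 28.1% of all windows. In all, 8 motifs were searched on both strands. AGATAA, which the GATA factors bind, was found before Aqp7 and in 9.99% of all windows, and ACAAAG, a SOX motif, before Btnl9 and in 16.5%. TATAAA was found before Btnl9 and in 12.4% of all windows, and the E-box CAGCTG before Btnl9 and Timp4 and in 13.0%. TAATTA, a homeobox motif, was found before none of the 6 and in 4.84% of all windows. The share of G and C ranged from 45.6% before Btnl9 to 66.8% before Rgcc, around a median of 52.4% over all windows. These matches are letters in a window, and binding was not measured.

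Per base of canonical transcript, all 8 genes were among the first 1000 of the 17475 genes with a length, which is 5.72% of them (no test). A longer transcript gives more reads per molecule, so levels of different genes were compared per base. Cd300lg was highest with 0.775 ± 0.040 normalized counts per base (SD, n = 3; rank 71), followed by Rgcc with 0.762 ± 0.058 (rank 80) and Aqp1 with 0.750 ± 0.021 (rank 88). The low count of Rgcc thus came with a short transcript, and per base it stood beside Cd300lg and Aqp1. Sparcl1 followed with 0.591 ± 0.011 per base (rank 297) and Car4 with 0.510 ± 0.071 (rank 507). Aqp7 had 0.489 ± 0.061 (rank 600), Btnl9 0.434 ± 0.064 (rank 899) and Timp4 0.426 ± 0.053 (rank 951). The highest and the lowest gene of the set differed 1.82-fold per base, against 3.37-fold in the deposited values. The median over the 8 genes was 0.551 per base, against 0.176 over the 9356 genes of known length averaging 200 or more. Genes of the cardiomyocyte list ranked from 45 (Myl2) to 8478 (Ttn) per base, so a high rank was not particular to endothelial genes.

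Neighbours in this order were compared by their log2 ratio per base within each mouse. The order was taken from the means of these same values, so the direction of the mean ratios is no independent result. With 3 mice the 7 exact two-sided sign-flip permutation tests cannot give a p below 0.25. Aqp1 exceeded Sparcl1 in 3 of 3 mice, by 0.34 ± 0.04 on the log2 scale (SD, n = 3; exact p = 0.25, adjusted p = 0.44). Sparcl1 exceeded Car4 by 0.22 ± 0.19 and Aqp7 exceeded Btnl9 by 0.18 ± 0.11, each in 3 of 3 mice and with the same exact p. In these 3 pairs the mean ratio was larger than its SD between mice, although Sparcl1 and Car4 were nearly level in mouse 1 (0.01). The other 4 pairs were Cd300lg and Rgcc, Rgcc and Aqp1, Car4 and Aqp7, and Btnl9 and Timp4. Their mean log2 ratios were from 0.02 to 0.06, each smaller than its SD, and did not differ beyond the spread between mice. Cd300lg also exceeded Rgcc in 3 of 3 mice, with the same sign-flip test result (exact p = 0.25) as the first 3 pairs. Per base of all annotated exons, a length that depends on how many transcripts are annotated, Aqp1 had 0.750 and rank 8, Cd300lg 0.623 and rank 28, Rgcc 0.380 and rank 229, and Car4 0.224 and rank 1107. On that scale the order of Rgcc and Aqp1, of Car4 and Aqp7 and of Aqp7 and Btnl9 reversed. The authors removed duplicate reads, which leaves at most 1 read for each start position and alignment. This is not a strict limit on the canonical length, on which 14 genes exceeded 1 normalized count per base. Cd300lg, Rgcc and Aqp1 lay above the 99th percentile of 0.737 per base, and ratios between genes with so many reads per base can be smaller than those of the RNA.

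Aqp1 and Aqp7 were the only aquaporins with a mean of at least 200 among the 5 listed of 12 in the family. In mice 1, 2 and 3 the log2 ratio of Aqp1 to Aqp7 per base was 0.47, 0.71 and 0.70, a 1.54-fold difference with Aqp1 higher in 3 of 3 mice (exact sign-flip permutation test, two-sided p = 0.25). Per base of all annotated exons it was 3.06-fold. Aqp11, which encodes an aquaporin of intracellular membranes, had 187, 125 and 111 normalized counts, or 0.038 per base. Aqp8 had 8, 7 and 20, and Aqp4, the main water channel of brain astrocytes, had 6, 10 and 16. Aqp11 was highest in mouse 1, like Aqp1 and Aqp7, while Aqp8 and Aqp4 were highest in mouse 3. Mip, Aqp2, Aqp3, Aqp5, Aqp6, Aqp9 and Aqp12 were not listed, and no gene of the table has a highest value below 4.

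Red blood cells and adipocytes are known to express Aqp1 and Aqp7, respectively, so their other genes were read beside both channels. The 5 listed erythroid genes had a summed level of 0.447, 0.443 and 0.465 normalized counts per base in mice 1, 2 and 3, against 0.773, 0.743 and 0.734 for Aqp1 alone. The beta-globin gene Hbb-bs was the highest of them per base with 0.180, and the heme synthesis gene Alas2 the lowest with 0.027. Of 6 adipocyte genes 4 were listed, and their summed level was 0.002, 0.017 and 0.057 per base, against 0.560, 0.456 and 0.452 for Aqp7. The undivided values of these 4 genes summed to only 5, 22 and 73 normalized counts. The part of erythroid cells and adipocytes in the levels of both channels was not tested. The adipokine gene Cfd was the highest of them with 0.018 per base and the lipid droplet gene Plin1 the lowest with 0.002. Glycerol that passes Aqp7 comes from the breakdown of triglycerides, and all 8 genes of a glycerol and lipolysis list were present, with a median of 0.434 ± 0.037 per base (SD, n = 3). Gpihbp1, which anchors lipoprotein lipase on capillary endothelium, was the highest with 1447, 1353 and 1276 normalized counts, or 1.64 per base. Gpd1, which makes glycerol 3-phosphate, was the lowest with 81, 69 and 79, or 0.027 per base. All 8 genes of this list were higher in mouse 1 than in mouse 3, as were 53.8% of the 9358 genes averaging 200 or more. Of the 8 genes, 6 averaged 200 or more. The difference was small for some, such as Gpd1 with 81 and 79 and Mgll with 2897 and 2855 in mice 1 and 3.

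Of 16 carbonic anhydrase genes 12 were listed, and Car4 was the highest per base with 0.510. Car8, whose protein lacks the enzymatic activity of the family, was next with 0.509 per base and 2107, 1977 and 1872 normalized counts, a difference far below the SD of 0.071 for Car4. The other 10 listed genes lay between 0.0005 and 0.468 per base, and per base of all annotated exons Car4 exceeded Car8 with 0.224 against 0.133. Of 9 genes of bicarbonate and acid transport, the traffic that Car4 feeds, 8 were listed with a median of 0.101 ± 0.016 per base (SD, n = 3). Bsg, a partner of the lactate transporters, was the highest with 0.575 per base, and the bicarbonate transporter gene Slc4a4 the lowest with 0.012.

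The other genes of the set differed in how they stood in their families. Cd300lg was 1 of 6 listed of 8 CD300 genes, and the next, Cd300c2, had 12, 26 and 12 normalized counts, or 0.014 per base against 0.775. Btnl9 was the only listed gene of 8 butyrophilin genes. Timp4, with 0.426 per base, was the third of 4 TIMP genes, after Timp3 with 0.641 and Timp2 with 0.461, and its difference from Timp2 was below its own SD of 0.053. Timp3 varied little, with 3048, 2994 and 3046 normalized counts, whereas Timp4 ranged from 2094 to 2682. Sparcl1 was second among 6 listed of 8 genes of the SPARC family with 0.591 per base, after Sparc with 0.812. Sparc had 1821, 1999 and 1806 normalized counts and was highest in mouse 2, as was Sparcl1.

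**Figure D2:**
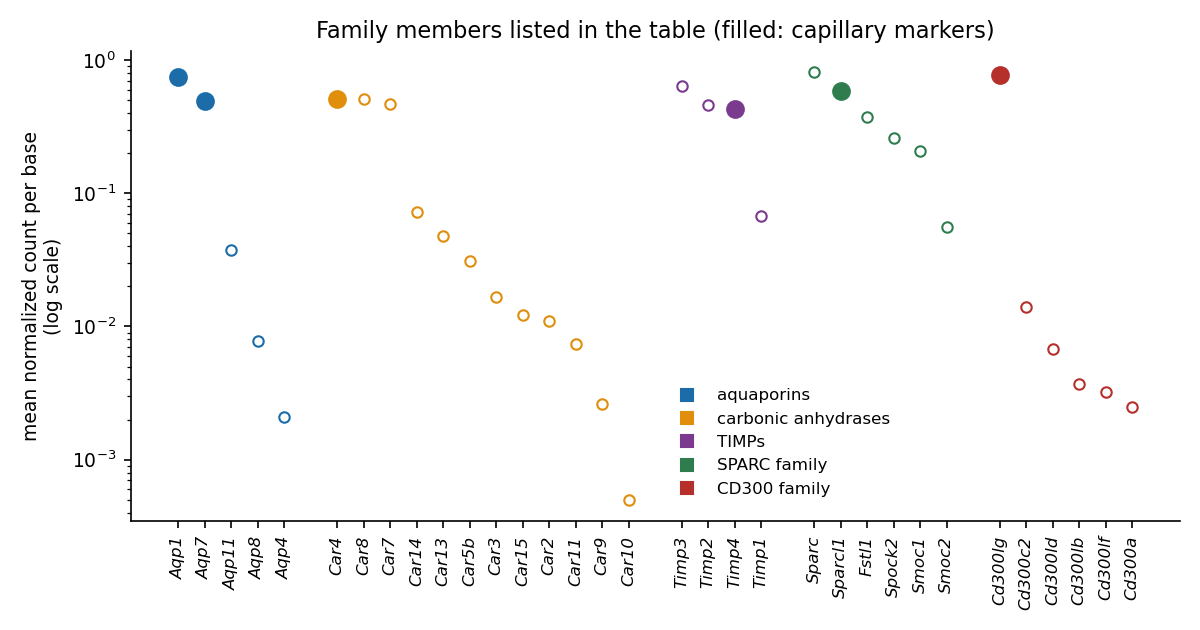
Mean normalized count per base of canonical transcript (y axis, log scale; mean of 3 mice) for the listed genes of 5 families (x axis, colours), with the capillary markers as filled points. Aqp1 and Cd300lg lead their families with 0.750 and 0.775 per base, Car4 lies level with Car8 at 0.510 and 0.509, and Timp4 and Sparcl1 lie below Timp3 (0.641) and Sparc (0.812).

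The markers of capillary endothelium were then set beside lists of other cells, and the medians are descriptions without a test. In each mouse the median over the list was taken per base of canonical transcript, and it averaged 0.551 ± 0.037 (SD, n = 3 mice) for the 8 capillary markers. A list of 12 other genes of heart capillaries, all of them listed, had 0.670 ± 0.045, with Gpihbp1 the highest and Pparg, a nuclear receptor of lipid metabolism, the lowest with 0.332. The 12 genes of endothelium in general had 0.676 ± 0.016, from Robo4 with 0.397 to the TGF-beta coreceptor gene Eng with 0.809. The 8 capillary markers thus lay slightly below both lists, by 0.28 ± 0.07 and 0.30 ± 0.06 on the log2 scale. Both lists hold Kdr and Esam, and the other capillary list shares Gpihbp1 and Mgll with the glycerol and lipolysis list, so the lists are not independent. All 10 arterial genes were listed, with 0.326 ± 0.009, and all 9 venous genes, with 0.262 ± 0.077. The highest were Efnb2, the arterial ephrin ligand, with 0.418 and Nrp2, a neuropilin of veins and lymphatics, with 0.577, and the lowest were Bmx with 0.140 and Tmem252 with 0.029. All 7 lymphatic genes were listed, with 0.149 ± 0.041, from Reln with 0.042 to Ccl21a with 0.300. All 7 endocardial genes were listed, with 0.311 ± 0.050, from the transcription factor gene Gata4 with 0.087 to the natriuretic peptide receptor gene Npr3 with 0.536. The capillary markers exceeded the arterial list 1.69-fold, the endocardial list 1.78-fold, the venous list 2.16-fold and the lymphatic list 3.78-fold, with the capillary median higher in 3 of 3 mice each time.

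Genes of cells outside the endothelium were present too. The 10 cardiomyocyte genes had a median of 0.429 ± 0.024 per base, from Ttn with 0.079 to Myl2 with 0.819. The capillary markers exceeded this list only 1.29-fold. Timp4, which cardiomyocytes can also express, had 0.426. The 10 mural cell genes had 0.039 ± 0.007, from Vtn with 0.015 to Rgs5 with 0.134, and the 8 fibroblast genes had 0.086 ± 0.014, from Tcf21 with 0.018 to Lum with 0.188. Sparcl1, which mural cells and fibroblasts can express, had 0.591 and exceeded every gene of both lists. Of 8 leukocyte genes 7 were listed, with 0.028 ± 0.009, from Itgam with 0.007 to C1qa with 0.138. The part of these cells in the levels of Timp4 and Sparcl1 was not tested.

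**Figure D3:**
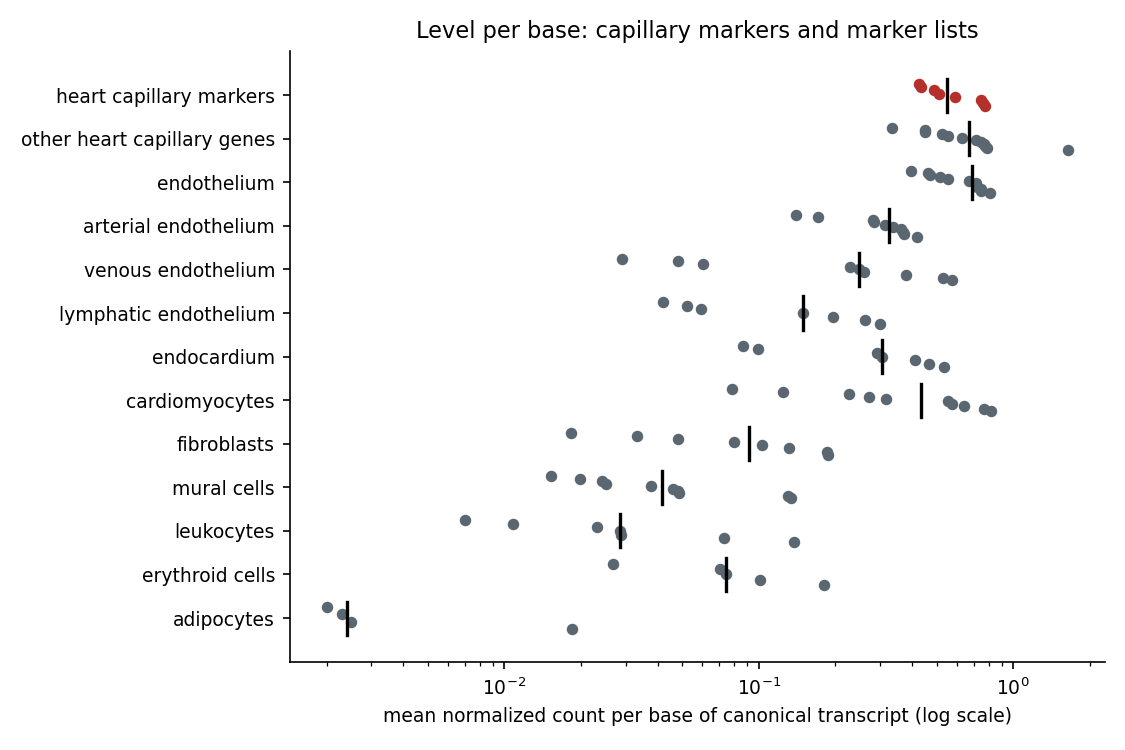
Mean normalized count per base of canonical transcript (x axis, log scale; mean of 3 mice) of each listed gene (points) in the capillary marker set (red) and 12 other lists (grey), with the median of each list (bar). The capillary markers span 0.426 to 0.775, and the medians fall to 0.325 for arterial, 0.305 for endocardial, 0.248 for venous and 0.149 for lymphatic genes.

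The lists also differed in how mice 1 and 3 compared, and these counts were made after the values had been seen. The median log2 ratio of mouse 3 to mouse 1 was -0.20 for the capillary markers, against -0.02 over the 9358 genes averaging 200 or more. It was -0.11 for the other heart capillary genes, of which 11 of 12 were higher in mouse 1, and -0.07 for the endothelium list, with 10 of 12. It was -0.09 for the arterial list, with 8 of 10 higher in mouse 1. Of the 9358 genes, 53.8% were higher in mouse 1 than in mouse 3. By contrast, no gene of the 7 lymphatic and 7 endocardial genes was higher in mouse 1 than in mouse 3, and 1 of the 9 venous genes was. Their median log2 ratios were 0.46, 0.49 and 0.69. Some genes in these counts were nearly equal in mice 1 and 3, such as Kdr with 3345 and 3311 and Ccl21a with 251 and 254. Npr3 of the endocardium had 1589, 914 and 2228 normalized counts and Gata4 had 290, 272 and 545, so mouse 2 was lowest and mouse 3 highest in both. The fibroblast, mural cell and leukocyte lists had positive medians of 0.41, 0.44 and 0.71 as well. The summed level of the mural list was 1794, 2241 and 2518 normalized counts in mice 1, 2 and 3. Its genes were not uniform. Rgs5, Kcnj8 and Vtn, 3 of the 10, were higher in mouse 1, whereas Myh11 had the largest log2 ratio with 2.93. The cardiomyocyte genes were split, with 5 of 10 higher in mouse 1 and a median of -0.07. The part of these cells in the difference of the capillary markers between mice was not tested. Mouse 1 also stood apart from mouse 3 in Xist and Ddx3y. In these comparisons sex therefore cannot be told apart from other differences between the 2 mice.

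**Figure D4:**
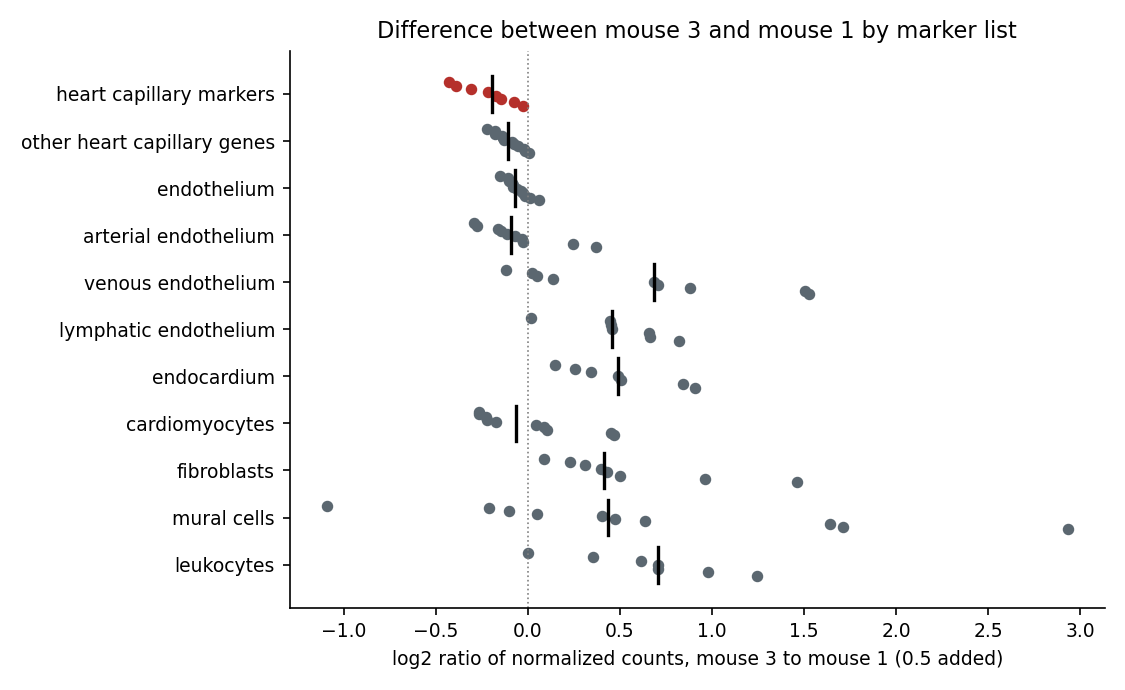
Log2 ratio of the normalized counts of mouse 3 to those of mouse 1 (x axis, 0.5 added to each value) for each gene (points) of the capillary marker set (red) and 10 other lists (grey), with the median of each list (bar). The capillary markers lie between -0.43 and -0.03, while the medians of the lymphatic, endocardial and venous lists lie at 0.46, 0.49 and 0.69.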

How the data were processed

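Ribosome-associated RNA of 3 hearts was read from 1 end over 72 bases. The authors trimmed reads with Trimmomatic 0.39, aligned them with STAR 2.7.11a to mm39 (GRCm39), removed duplicates with Picard 3.1.1, left out reads of several positions, of ribosomal RNA or of mitochondria, counted exonic reads by strand with featureCounts 2.0.4 and normalized with DESeq2 1.36.0. The deposited values are a score in the sense of counts divided by a size factor and rounded to whole numbers, not raw counts, and no count model was used. They sum to 7149102, 7158585 and 7268785. Duplicate removal holds down transcripts with many reads per base. The sample titles name the table's columns, and 0 further columns held values of samples. Squared deviations between libraries averaged 5.48 to 8.31 times those of counting, so no pair agreed within sampling noise. The labels call the libraries biological replicates, and sex-linked genes set mouse 1 apart from the others. Whether mice 2 and 3 are separate animals rests on the labels.

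The worth of 1 read was estimated from values between 5 and 120 by the whole numbers that rounding doubles or leaves empty, and was checked on simulated data. Counting errors cover counting only. Lengths of 17475 of 17583 genes (99.4%) come from GENCODE M39 of GRCm39, with the Ensembl canonical transcript as the main length and all exons as the alternative. Ratios within mice used a pseudocount of 0.5 and exact sign-flip permutation tests. Alternatives were rescaling to equal totals or by trimmed means (with 30% of log ratios and 5% of levels cut), other lengths, pseudocounts of 1 and 5, minima of 10 and 100, other summaries and leaving out each mouse. Copies were searched with BLAST 2.17.0, and Python 3.11.15, numpy 2.4.6, pandas 2.3.3 and matplotlib 3.10.9 were used.

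The members, lists and tests were chosen with earlier results of these data known. Named by rule are the members, every listed aquaporin, the highest genes of each family per base, and the highest and lowest gene of each other list. Outside this rule, Kdr, Esam and Mgll were named as shared between lists. Kdr and Mgll were also named as nearly equal in mice 1 and 3, and Kcnj8 and Myh11 for their values in these mice. These namings were made after the values had been seen. No gene was named for a correlation over mice, since 3 samples of 1 condition give none. Xist and Ddx3y were chosen after their values were seen.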

Additional observations from a re-analysis of the deposited data

How the results depend on the processing

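No paired analysis was possible because all 3 libraries belong to 1 group. The median normalized count of the 8 genes (2128) stayed within 1 SD under both other scalings and lay between 2057 and 2168 without each mouse in turn. Their median rank by mean was 196, between 171 and 215 without each mouse, 402 per base of canonical transcript and 371 per base of all exons. The log2 ratio of Aqp1 to Aqp7 was between 0.58 and 0.70 without each mouse and positive under every length and pseudocount tried. Of the 7 neighbouring pairs, 4 kept the order of the means per base of canonical transcript in every mouse. That number was between 4 and 7 without a mouse (7 without mouse 3), 3 with a pseudocount of 5 and 2 without division by length. By all exons the ratio reversed to -0.98 for Rgcc to Aqp1, -0.14 for Car4 to Aqp7 and -0.55 for Aqp7 to Btnl9. Without division by length it reversed to -1.66, -0.70 and -0.88 for these pairs, to -0.051 for Aqp1 to Sparcl1 and to -0.053 for Btnl9 to Timp4. Without each mouse in turn, Rgcc to Aqp1 lay between -0.002 (without mouse 1 or 2) and 0.068, and Btnl9 to Timp4 between -0.076 (without mouse 2) and 0.136.

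On the log2 scale, by all exons the capillary markers lay at -0.16 to the other capillary genes, -0.12 to the endothelium list and 0.50 to the arterial list. Without division by length they lay at 0.51 to the other capillary genes, a reversal, and at 1.27 to the endocardial list. By means of log2 values they lay at -0.16, -0.09, 0.99, 1.80 and 1.20 to the other capillary, endothelium, arterial, venous and endocardial lists. Without each mouse in turn these ratios ranged from -0.31 to -0.24 for the other capillary genes, -0.33 to -0.26 for endothelium, 0.72 to 0.82 for arterial, 0.96 to 1.38 for venous, 1.65 to 2.16 for lymphatic and 0.70 to 1.01 for endocardial genes. Members over a coefficient of variation of 20% numbered between 0 and 1 (without mouse 2) when each mouse was left out. Genes of all kinds over it numbered 749 of 9358, and between 455 (without mouse 1) and 921 (without mouse 2). With a mean of at least 100 they numbered 1273. Mouse 1 was highest and mouse 3 lowest in 6 members under both other scalings, an alternative chosen after seeing the data. Counting errors take reads as independent, so at the many reads per base of Aqp1 and Sparcl1 the shares of counting and of duplicate removal in their small spread cannot be told apart.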
